A study of Mus musculus with 21 samples.

Results

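Interferon-stimulated genes are the genes that a cell switches on when interferon reaches its receptor, and 34 of them were followed across cultured mouse cells of 7 kinds. They were picked by name, with earlier results of these data known, from the deposited table, in which 19285 genes had values. All 34 passed the filter on low values that left 14444 genes for testing. RNA sequencing covered 21 libraries, 3 for each group. The testicular groups were peritubular myoid cells (PTM), the contractile cells around the seminiferous tubule, Sertoli cells, the nurse cells of the tubule, Leydig cells, which make testosterone, and germ cells. The other groups were vascular (VSMC), intestinal (ISMC) and tracheal (TSMC) smooth muscle cells. Every group was C57BL/6J, carried no treatment, was labelled as primary isolated cells, and was grown in DMEM/F12 with 10% fetal bovine serum. The series text says that cited methods were used to isolate the testicular cells and that a company, Procell, supplied the smooth muscle cells, so organ and source cannot be told apart in any contrast between them. No label gives the age of the mice, the days in culture, or whether the 3 libraries of a group came from separate animals or cultures, so p-values measure only the spread between these libraries.

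Type I interferons bind a receptor made of Ifnar1 and Ifnar2, which activates the kinases Jak1 and Tyk2. These phosphorylate STAT proteins, among them Stat2, which joins Irf9 in a complex that binds the interferon-stimulated response element (ISRE) upstream of antiviral genes. The products sense foreign nucleic acid, degrade or sequester viral RNA, attack the membranes of intracellular microbes, and in part damp or feed back on the signal. In the testis, Sertoli and Leydig cells are known to answer virus and interferon more strongly than germ cells do.

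The stretch before the start of a gene is shown for Bst2, Isg15 and Irf7, the 3 members with the highest mean FPKM over the testicular somatic libraries, and for the IFIT genes, which did not all move alike. Windows run from 250 bases before to 50 bases after the start, on the strand of the gene, from RefSeq on GRCm38.p6. Capitals mark each match to GAAANNGAAA or to its reverse complement TTTCNNTTTC, and matches that overlap run together.
Isg15 (chr4:156200769-156201068, minus strand): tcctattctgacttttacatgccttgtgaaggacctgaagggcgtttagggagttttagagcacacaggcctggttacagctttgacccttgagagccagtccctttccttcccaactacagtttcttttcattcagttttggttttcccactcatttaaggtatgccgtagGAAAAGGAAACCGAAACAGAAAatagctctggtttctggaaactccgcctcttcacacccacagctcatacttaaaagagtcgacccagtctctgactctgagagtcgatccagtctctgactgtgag
Bst2 (chr8:71537423-71537722, minus strand): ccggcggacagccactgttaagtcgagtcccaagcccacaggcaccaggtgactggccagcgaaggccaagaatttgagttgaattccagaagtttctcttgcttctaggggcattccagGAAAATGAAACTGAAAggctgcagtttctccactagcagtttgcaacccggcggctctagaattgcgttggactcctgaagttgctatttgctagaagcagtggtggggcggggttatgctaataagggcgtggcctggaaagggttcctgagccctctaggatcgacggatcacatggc
Irf7 (chr7:141266375-141266674, minus strand): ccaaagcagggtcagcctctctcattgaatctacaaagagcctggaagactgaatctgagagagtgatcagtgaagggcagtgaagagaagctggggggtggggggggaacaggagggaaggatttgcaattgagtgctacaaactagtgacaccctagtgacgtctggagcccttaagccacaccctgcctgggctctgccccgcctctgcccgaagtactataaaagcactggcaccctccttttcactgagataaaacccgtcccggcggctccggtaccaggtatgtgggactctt
Ifit1 (chr19:34640639-34640938, plus strand): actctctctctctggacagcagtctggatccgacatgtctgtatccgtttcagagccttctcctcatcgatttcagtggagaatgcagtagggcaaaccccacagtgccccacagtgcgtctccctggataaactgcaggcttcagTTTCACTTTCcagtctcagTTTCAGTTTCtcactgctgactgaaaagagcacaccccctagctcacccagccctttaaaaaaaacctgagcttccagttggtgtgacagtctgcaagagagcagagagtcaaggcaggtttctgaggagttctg
Ifit3 (chr19:34583279-34583578, plus strand): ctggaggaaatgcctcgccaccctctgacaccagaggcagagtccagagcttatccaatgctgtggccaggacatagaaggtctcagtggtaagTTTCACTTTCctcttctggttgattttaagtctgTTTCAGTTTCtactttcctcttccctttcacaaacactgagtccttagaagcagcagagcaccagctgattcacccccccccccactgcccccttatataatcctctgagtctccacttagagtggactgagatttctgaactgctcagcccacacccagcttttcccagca
Ifit2 (chr19:34550444-34550743, plus strand): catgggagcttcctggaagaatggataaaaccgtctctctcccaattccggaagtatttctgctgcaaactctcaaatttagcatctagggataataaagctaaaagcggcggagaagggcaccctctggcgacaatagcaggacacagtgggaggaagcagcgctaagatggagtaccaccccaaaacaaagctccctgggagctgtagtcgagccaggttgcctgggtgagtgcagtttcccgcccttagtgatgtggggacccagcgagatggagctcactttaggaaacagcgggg

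Isg15, which encodes a ubiquitin-like protein, has 3 overlapping matches whose first bases lie 78, 72 and 66 bases before the start. Bst2, which encodes tetherin, an anchor that holds budding virus at the cell surface, has overlapping matches 130 and 124 bases before the start. Irf7, a transcription factor of the interferon genes, has none in its window. Ifit1 and Ifit3, which encode RNA-binding proteins that block translation of viral RNA, have theirs on the opposite strand, 104 and 85 bases and 156 and 122 bases before the start. Ifit2, a neighbour of both on chromosome 19, has none in the window shown, nor in the window of its other RefSeq start.

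Of the 34 members, 26 had an entry in the RefSeq promoter table, in 30 windows. At least 1 match to GAAANNGAAA stood in 16 of the 26 (61.5%), against 1079 of 27025 genes in the whole table (3.99%). TTCNNNGAA, the palindromic element of the interferon gamma response, was found in 5 of 26 (19.2%), against 9.55% of all genes. Both strands were searched for the first motif, and the second reads the same on each. The 10 members with no match were Ifit2, Irf7, Irf9, Oasl1, Oasl2, Cmpk2, Ifi44, Xaf1, Ifi35 and Lgals3bp. In the contrast of testicular somatic cells with smooth muscle given below, 16 of 16 members with a match were called higher. So were 9 of the 10 without, where 9.87% of all tested genes were. A match is a description of the letters and no evidence of binding.

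Libraries held between 20000000 and 22500000 fragments, as inferred from the size of 1 fragment in FPKM (fragments counted per length of transcript and per depth of the library), and 10160 to 11536 genes at 1 FPKM or more. Over all 34 members, 1 fragment was worth between 0.00661 and 0.0775 FPKM, so values of a few hundredths rest on a few fragments. Defining markers did not fully follow the labels. The 10 Leydig markers, led by Insl3, Cyp11a1 and Star, summed to 2118 to 8179 FPKM in Leydig libraries, 2688 to 5472 in PTM libraries and 279 to 308 in Sertoli libraries. The 10 Sertoli markers, led by Sox9, Wt1 and Cldn11, summed to 481 to 802 FPKM in Sertoli libraries and to 367 to 1173 in PTM libraries. The 10 smooth muscle markers, led by Acta2, Myh11 and Cnn1, were highest in Sertoli libraries (9233 to 12490 FPKM, against 3215 to 3703 in PTM and 4573 to 5193 in the smooth muscle libraries). Germ cell markers summed to 13650 to 14210 FPKM in germ libraries and to at most 16.4 elsewhere. In such bulk cultures, fewer cells of a type and less RNA per cell cannot be told apart.

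Added together, the members had a higher level in each of the 9 libraries of testicular somatic cells than in any smooth muscle or germ library, with exceptions among single genes that are given below for Ifit2, Mx1 and Dhx58. Together they made up 0.454 to 0.967% of all FPKM in PTM libraries, 0.703 to 0.851% in Sertoli libraries and 0.399 to 0.874% in Leydig libraries. The share was far smaller in VSMC (0.0370 to 0.0405%), ISMC (0.0487 to 0.0501%), TSMC (0.0325 to 0.0342%) and germ libraries (0.00901 to 0.0119%). At least 1 FPKM was reached in all 9 testicular somatic libraries by 33 of 34 members, in all 9 smooth muscle libraries by 14 and in all 3 germ libraries by 4.

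**Figure D1:**
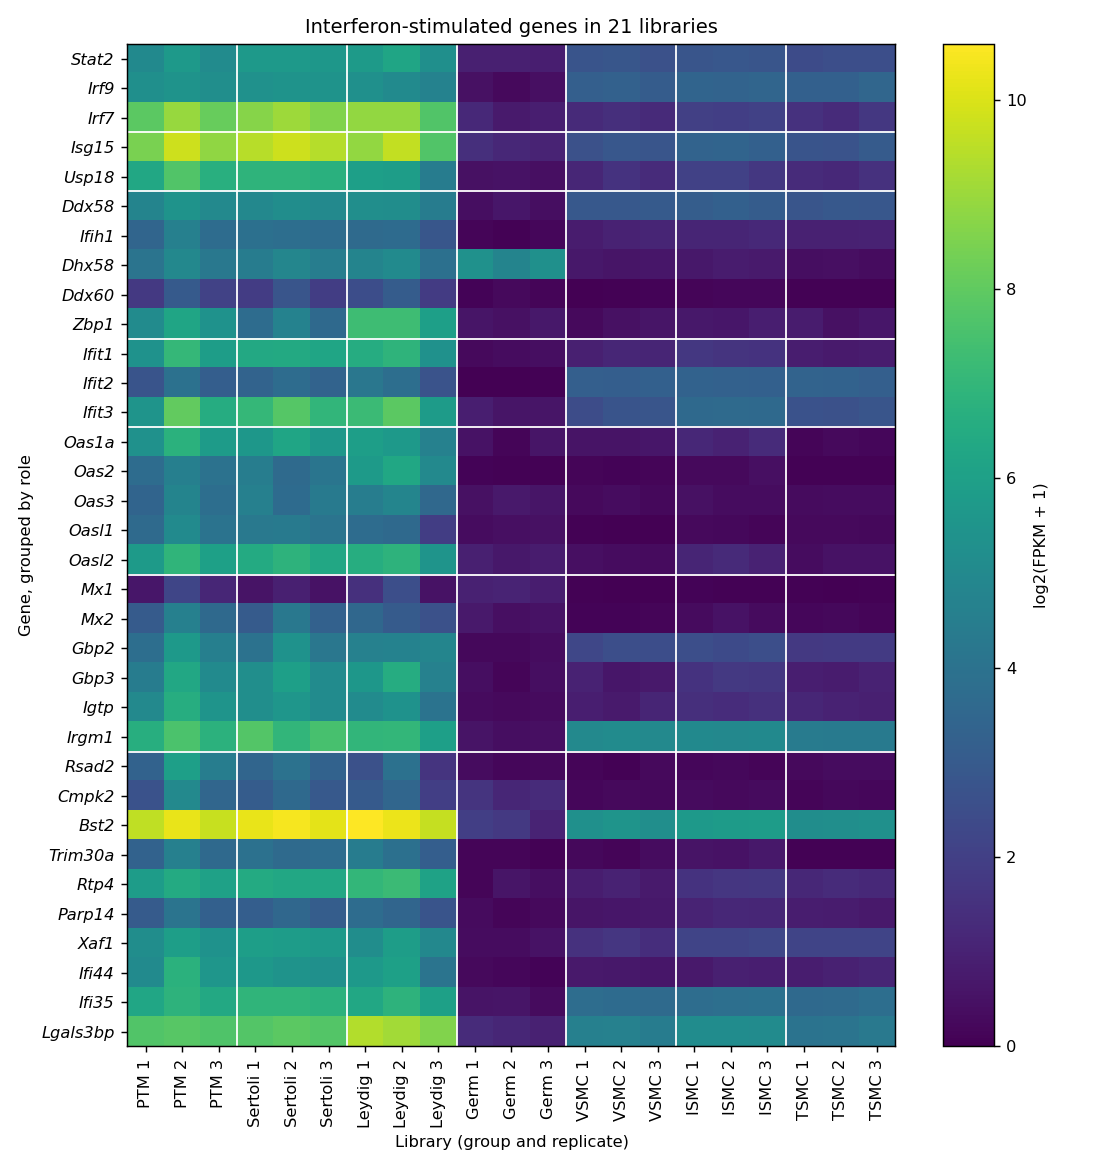
Level of each of the 34 interferon-stimulated genes, as log2(FPKM + 1) by colour, with genes in rows ordered by role and the 21 libraries in columns ordered by group, and white lines between groups and roles. The 9 columns at the left (PTM, Sertoli and Leydig) are brighter than the smooth muscle columns for 33 of 34 genes, faintly so for Mx1 (0.45 to 4.89 FPKM against 0 to 0.08), while Ifit2 is of similar colour in all somatic columns. Bst2 and Irgm1 are also visible in smooth muscle, and Dhx58 is the 1 gene that is bright in germ cells.

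A contrast of testicular somatic cells with smooth muscle of other organs, on the mean of the PTM, Sertoli and Leydig groups less the mean of the VSMC, ISMC and TSMC groups, gave 33 members called higher and 0 lower, where 9.87% of all tested genes were called higher and 6.82% lower. A gene was called when its adjusted p was under 0.05 and its log2 fold change at least 1 in size (limma on log2(FPKM + 1), Benjamini-Hochberg over 14444 genes). The median log2 fold change was 3.65 over the members and 0.08 over all tested genes. For the same 33 genes, every testicular somatic library lay above every smooth muscle library, which held for 18.8% of tested genes. The ratio of mean FPKM was over 50 for 16 members, from 10 to 50 for 11 and under 10 for 7, with a median of 46.6.

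The PTM group alone gave the same picture against each smooth muscle group: 33 higher and 0 lower against VSMC (12.6% and 6.37% of all tested genes), 33 and 0 against ISMC (10.7% and 7%), and 33 and 0 against TSMC (11.3% and 7.2%). The median log2 fold change of the members was 3.89, 3.51 and 3.90, beside 0.19, 0.14 and 0.13 for all tested genes. These comparisons share the 3 PTM libraries and are not independent of one another.

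**Figure D2:**
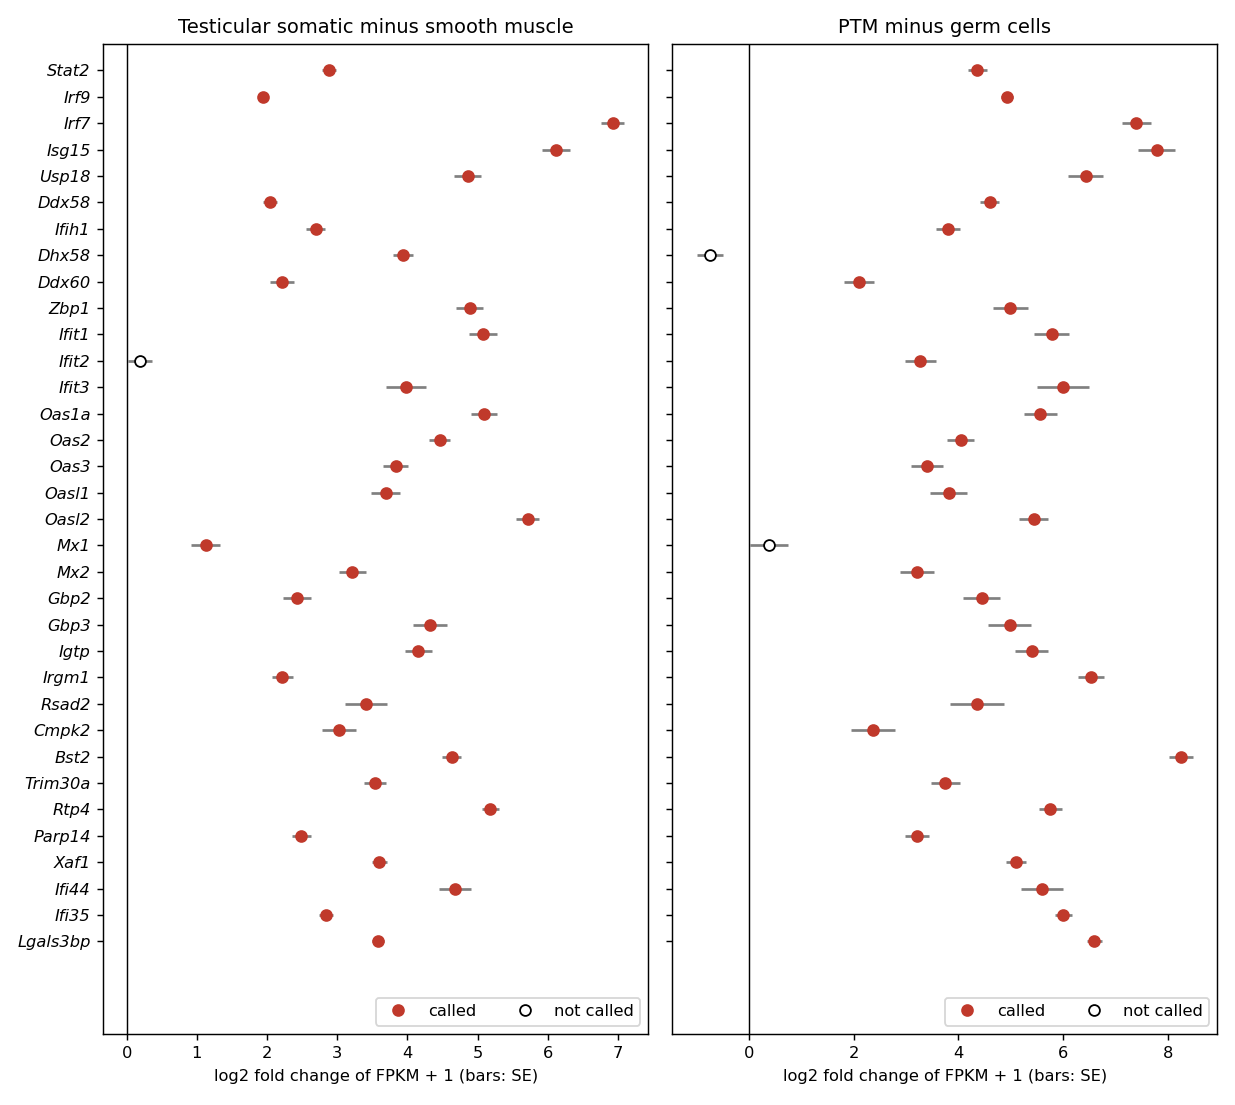
Log2 fold change of FPKM + 1 for each member, with its standard error from limma as a bar, for testicular somatic cells less smooth muscle (left) and PTM less germ cells (right), where filled points were called and open points were not. Ifit2 is the open point at the left (0.19), and Dhx58 (-0.74) and Mx1 (0.38) are the open points at the right.

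All 3 transcription factors among the members were higher in testicular somatic cells. Irf7 (Entrez 54123, chromosome 7, 141263183 to 141266424, minus strand), the factor that amplifies interferon production, was at 241, 501 and 278 FPKM in PTM, 404, 526 and 381 in Sertoli and 474, 461 and 207 in Leydig libraries. It was at 1.40, 1.66 and 1.41 FPKM in VSMC, 2.97, 2.85 and 3.10 in ISMC, 1.81, 1.48 and 2.33 in TSMC and 1.30, 0.68 and 0.83 in germ libraries. The lowest testicular somatic library stood 66.7 times above the highest smooth muscle library, and the log2 fold change of 6.92 (SE 0.16, limma adjusted p = 1.28e-16) was the largest of the 34.

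Stat2 and Irf9, which act in 1 complex, differed by less. Stat2 ranged from 31.4 to 74.2 FPKM (median 50.4) in testicular somatic and from 4.40 to 6.23 (median 5.78) in smooth muscle libraries, a shift of 2.88 on the log2 scale (SE 0.11, limma adjusted p = 7.85e-14). Irf9 ranged from 25.0 to 42.8 FPKM (median 38.9) against 7.51 to 10.4 (median 8.80), a shift of 1.94 on the log2 scale (SE 0.07, limma adjusted p = 5.80e-14). Both genes were thus measured well above 1 FPKM in every smooth muscle library, and both were under 1 FPKM in every germ library.

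Isg15 (Entrez 100038882, chromosome 4, 156199424 to 156200818, minus strand) and Usp18, the protease that removes Isg15 from its targets and blocks the receptor, form the modifier system, and both were called higher. Isg15 was at 348, 875 and 448 FPKM in PTM, 692, 890 and 677 in Sertoli and 471, 775 and 209 in Leydig libraries. Smooth muscle libraries had 5.17, 6.37 and 5.87 FPKM in VSMC, 9.36, 9.53 and 8.5 in ISMC and 5.65, 5.53 and 7.19 in TSMC, and germ libraries had 1.70, 1.28 and 1.09. The testicular somatic libraries therefore lay at least 22.0 times above every smooth muscle library, and the log2 fold change was 6.12 (SE 0.20, adjusted p = 1.79e-14). Usp18 ranged from 20.8 to 206 FPKM against 1.2 to 3.19, a shift of 4.86 on the log2 scale (SE 0.19, limma adjusted p = 2.44e-13).

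Among 5 sensors of foreign nucleic acid, all were called higher. Ddx58, which encodes RIG-I, and Ifih1, which encodes MDA5, are cytoplasmic receptors for viral RNA. Ddx58 ranged from 20.7 to 42.4 FPKM in testicular somatic and from 5.85 to 8.5 in smooth muscle libraries, and Ifih1 from 6.06 to 23.7 against 0.73 to 1.32. Dhx58, which encodes their regulator LGP2, ranged from 13.95 to 32.4 FPKM against 0.29 to 0.77. Zbp1, a sensor of left-handed nucleic acid that can trigger necroptosis, ranged from 11.4 to 158 FPKM against 0.20 to 0.84, the widest spread among testicular somatic groups of these genes. Ddx60, a helicase linked to RIG-I signalling, was the least abundant, at 2.40 to 7.36 FPKM against 0.02 to 0.14.

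The IFIT group split. Ifit1 was at 40.9, 133 and 58.2 FPKM in PTM, 82.5, 84.1 and 72.8 in Sertoli and 93.4, 118 and 39.8 in Leydig libraries, against 0.69 to 2.25 in smooth muscle, a shift of 5.08 on the log2 scale (SE 0.20, limma adjusted p = 1.80e-13). Ifit3 was at 43.1 to 264 FPKM against 4.55 to 11.7, a shift of 3.98 on the log2 scale (SE 0.29, limma adjusted p = 8.38e-10). Ifit2 was the 1 member not called against smooth muscle.

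Ifit2 (Entrez 15958, chromosome 19, 34550694 to 34576534, plus strand) was at 5.71, 14.7 and 8 FPKM in PTM, 9.42, 12.4 and 9.29 in Sertoli and 17.2, 13.2 and 5.50 in Leydig libraries. Smooth muscle libraries had 8.29, 7.93 and 8.55 FPKM in VSMC, 8.99, 8.88 and 8.42 in ISMC and 9.29, 9.07 and 8.19 in TSMC. The groups overlapped: PTM replicate 1 and Leydig replicate 3 were below every smooth muscle library, and 5 testicular somatic libraries were above all of them. The log2 fold change was 0.19 (SE 0.17, adjusted p = 0.328). In germ libraries it was at 0.01, 0 and 0.04 FPKM.

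**Figure D3:**
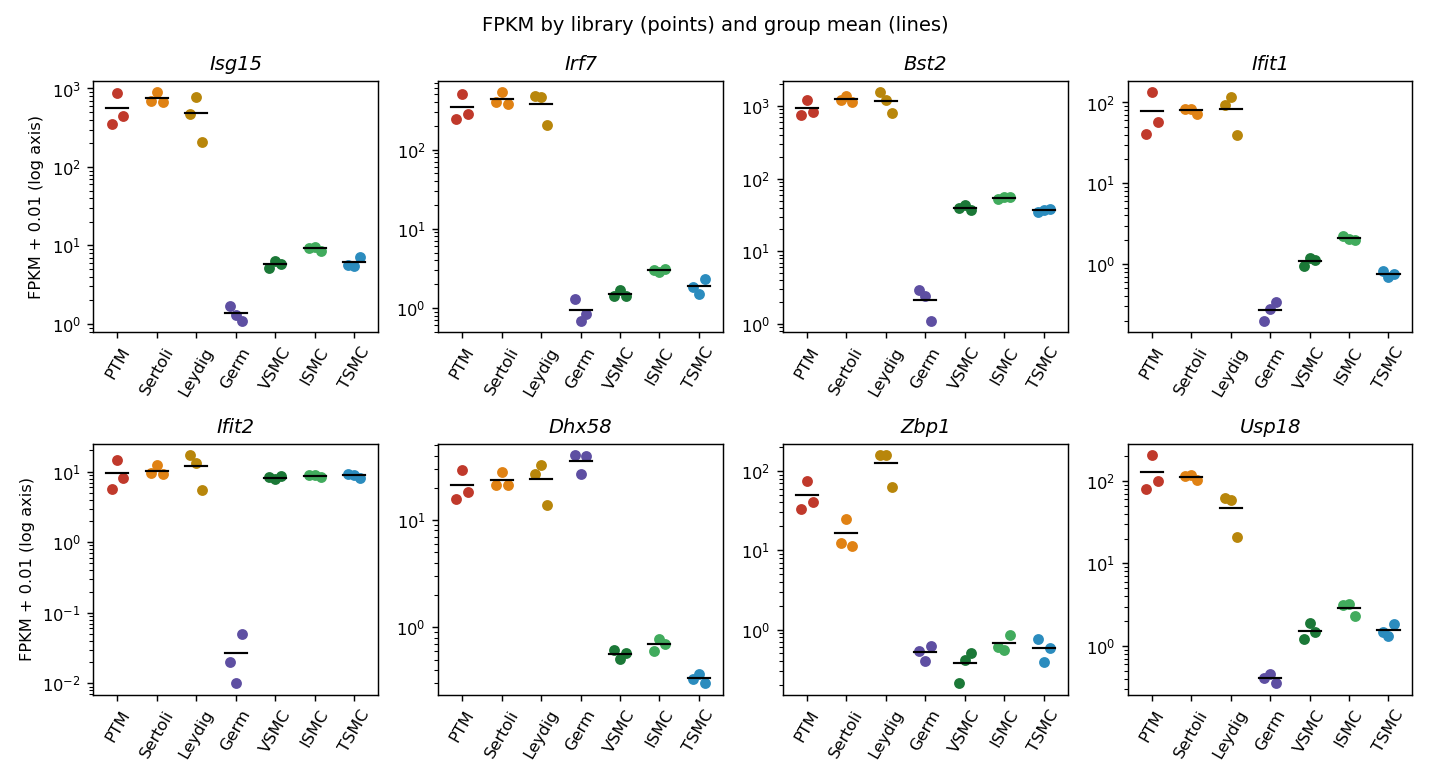
FPKM + 0.01 on a log axis for 8 members, with 1 point for each library (replicates 1 to 3 from left to right in each group) and a line at the group mean; axis ranges differ between panels. Isg15, Irf7, Bst2, Ifit1, Zbp1 and Usp18 are higher in PTM, Sertoli and Leydig than elsewhere, Ifit2 is level across the somatic groups, and Dhx58 is as high in germ cells as in testicular somatic cells.

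The oligoadenylate synthetase family is named for enzymes that make the messenger that activates RNase L, and its 5 genes here were all called higher. The list includes Oasl1, which in mouse represses translation of Irf7 mRNA. Oas2 ranged from 11.6 to 78.3 FPKM (median 21.5) against 0.03 to 0.35 (median 0.09) in smooth muscle. Its ratio of mean FPKM, 232, was the largest of the 34. With 1 fragment of Oas2 worth 0.0126 FPKM, the lowest smooth muscle values rest on a few fragments, so this ratio is imprecise. Oasl2 ranged from 43.6 to 119 FPKM against 0.24 to 1.37, a shift of 5.71 on the log2 scale (SE 0.16, limma adjusted p = 2.48e-15). Oas1a ranged from 24.0 to 107 FPKM against 0.12 to 1.46, Oas3 from 9.57 to 27.3 against 0.17 to 0.41, and Oasl1 from 2.81 to 32.4 against 0 to 0.22.

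All 6 GTPase genes were called higher. Irgm1, which regulates the immunity-related GTPases on membranes, had 61.4 to 216 FPKM in testicular somatic libraries and 19.3 to 33.3 in smooth muscle libraries, so it was also abundant in the latter (log2 fold change 2.22, SE 0.15, adjusted p = 2.25e-10). Igtp, an immunity-related GTPase, ranged from 15.3 to 95.1 FPKM against 0.71 to 1.73. Gbp2 and Gbp3, guanylate-binding proteins that attack the vacuoles of intracellular microbes, ranged from 13.4 to 52.6 FPKM against 2.36 to 4.84 and from 20.7 to 94.0 against 0.57 to 2.40. Mx2 ranged from 5.14 to 23.7 FPKM against 0.06 to 0.44.

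Mx1, a dynamin-like GTPase that blocks influenza virus and is disrupted in many laboratory mouse strains, was the lowest member. It was at 0.58, 3.61 and 1.22 FPKM in PTM, 0.47, 0.90 and 0.45 in Sertoli and 1.79, 4.89 and 0.45 in Leydig libraries, against 0 to 0.08 in smooth muscle. The groups did not overlap, and the log2 fold change of 1.12 (SE 0.21, adjusted p = 0.000126) is understated by the added 1. Without PTM replicate 2 it was 0.98, and without Leydig replicate 2 it was 0.95, both short of the fold minimum. The call was lost in 3 of 27 alternatives, these among them.

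The remaining 10 effectors were all called higher. Bst2 (Entrez 69550, chromosome 8, 71534259 to 71537437, minus strand) was the most abundant member, at 761, 1221 and 832 FPKM in PTM, 1195, 1373 and 1146 in Sertoli and 1538, 1225 and 801 in Leydig libraries. It was at 35.0 to 56.2 FPKM in smooth muscle and 2.88, 2.41 and 1.10 in germ libraries. Testicular somatic and smooth muscle libraries were separated by at least 13.5 times, with a shift of 4.63 on the log2 scale (SE 0.13, limma adjusted p = 1.94e-15).

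Lgals3bp, a secreted glycoprotein that binds galectins, was at 203 to 659 FPKM against 15.3 to 34.7 (log2 fold change 3.58, SE 0.08, adjusted p = 1.38e-16). Rtp4, a receptor transport protein, ranged from 56.9 to 147 FPKM against 0.71 to 2.32 (log2 fold change 5.18, SE 0.12, adjusted p = 2.20e-16). Rsad2, which encodes viperin and makes a chain-terminating nucleotide, varied most, from 2.05 to 62.8 FPKM against 0.03 to 0.28. Its neighbour Cmpk2, a mitochondrial nucleotide kinase, ranged from 2.93 to 30.4 FPKM against 0.11 to 0.25. The others, Trim30a, Parp14, Xaf1, Ifi44 and Ifi35, had log2 fold changes from 2.49 (Parp14, an ADP-ribosyltransferase) to 4.68 (Ifi44). Ifit3, Oas1a, Gbp2, Gbp3, Mx1, Mx2, Oasl1, Oasl2 and Trim30a have related genes, and how alike these are was not measured. Fragments that fit more than 1 relative may have been divided between them. Neither the rule for that nor the use of strand is given in the sources used here.

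Within the smooth muscle libraries the members were not uniformly silent. Of the 34, 8 reached at least 5 FPKM in all 9 libraries (Irf9, Isg15, Ddx58, Ifit2, Irgm1, Bst2, Ifi35 and Lgals3bp) and 11 stayed under 1 FPKM in all 9. The 3 groups were close: 0 members were called between VSMC and ISMC (0.831% of all tested genes were) or between VSMC and TSMC (4.58%), and 1 between ISMC and TSMC (4.17%). That gene was Lgals3bp, at 34.7, 34.1 and 33.2 FPKM in ISMC and 15.3, 16.0 and 18.3 in TSMC (log2 fold change 1.001, SE 0.14, adjusted p = 6.33e-05). It passed the fold minimum narrowly and fell short of it, at 0.95 to 0.999, without ISMC replicate 1 or 2 or TSMC replicate 1 or 2.

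Small differences between ISMC and the other smooth muscle groups nevertheless ran mostly one way, while those between VSMC and TSMC did not. Every ISMC library lay above every VSMC library for 23 members, where this held for 20.4% of all tested genes, above every TSMC library for 25 (22.6%) and below every TSMC library for 1 (26.9%). VSMC lay above TSMC for 9 members (19.5%) and below it for 6 (34.4%), and the log2 fold change was positive for 15 and negative for 19. With only the libraries of each pair in the fit and no fold minimum, an alternative chosen after seeing the data, 16 members were lower in VSMC than in ISMC (6.61% of all tested genes) and 0 higher (0.865%). Under the same alternative 23 were higher in ISMC than in TSMC (17.8%) and 1 lower (20.8%), and 9 were higher in VSMC than in TSMC (15.9%) and 6 lower (27.9%). Ifit3 was among them in the comparisons with ISMC but not between VSMC and TSMC. It was at 4.55, 5.66 and 5.83 FPKM in VSMC, 11.2, 11.7 and 11.1 in ISMC and 5.44, 5.18 and 5.96 in TSMC. Some counted members were under 1 FPKM, such as Trim30a, with means of 0.51 FPKM in ISMC and 0.033 in TSMC. Macrophage marker sums (12 markers, Adgre1, Cd68 and Csf1r being listed first) were also highest of all groups in ISMC, at 500 to 684 FPKM. They were 239 to 268 in VSMC and 11.95 to 13.8 in TSMC libraries. Lyz2 made up most of the ISMC and VSMC sums, with means of 449 and 198 FPKM, beside 4.09 in TSMC. Adgre1, Cd68 and Csf1r averaged 9.72, 20.3 and 7.16 FPKM in ISMC and 2.55, 11.06 and 3.71 in VSMC. The part of macrophages in this order was not tested.

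Comparisons within the testis gave 1 to 6 called members, a share below that of all tested genes for 1 pair of groups and near or above it for the other two. PTM and Sertoli cells differed at 1 of 34 members (6.06% of all tested genes were called), PTM and Leydig cells at 6 (11.1%), and Leydig and Sertoli cells at 5 (12.9%). In PTM less Leydig, 3 were higher (6.53%) and 3 lower (4.57%), and in Leydig less Sertoli, 3 were higher (6.56%) and 2 lower (6.32%). The median log2 fold change of the members was -0.02, 0.00 and -0.15 in these comparisons, beside 0.06, 0.10 and -0.04 for all tested genes. The pooled spread came from all 7 groups, of which smooth muscle varied least.

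Zbp1 separated the 3 groups. It was at 33.2, 74.1 and 41.1 FPKM in PTM, 12.4, 25.1 and 11.4 in Sertoli and 158, 158 and 62.1 in Leydig libraries. PTM and Sertoli libraries did not overlap, Leydig libraries lay above all Sertoli libraries, and 1 Leydig library lay below the highest PTM library. The log2 fold change was 1.54 for PTM less Sertoli (SE 0.33, adjusted p = 0.00212), -1.29 for PTM less Leydig (SE 0.33, adjusted p = 0.00366) and 2.84 for Leydig less Sertoli (SE 0.33, adjusted p = 2e-06). With only the libraries of the pair in the fit, the first was no longer called (adjusted p = 0.0675) nor the second (adjusted p = 0.0956).

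Oas2 and Lgals3bp were higher in Leydig cells than in both neighbours. Oas2 was at 12.5, 22.7 and 15 FPKM in PTM, 21.5, 11.6 and 16.5 in Sertoli and 53.6, 78.3 and 30.3 in Leydig libraries. The Leydig libraries overlapped neither group, with log2 fold changes of -1.57 for PTM less Leydig and 1.59 for Leydig less Sertoli (SE 0.26 each, limma adjusted p = 8.25e-05 and 7e-05). Over the 27 alternatives these calls were kept, but the limma adjusted p rose to 0.0353 and 0.0414. Lgals3bp was at 209, 230 and 203 FPKM in PTM, 213, 238 and 217 in Sertoli and 659, 551 and 377 in Leydig libraries, again without overlap. Its Leydig less Sertoli call fell short of the fold minimum in 1 of 27 alternatives (0.984). The Leydig libraries also stood apart by fibroblast markers: of 10, led by Dcn, Pdgfra and Col3a1, 9 were lower in PTM than in Leydig cells and 9 higher in Leydig than in Sertoli cells. They summed to 5343 to 6803 FPKM in Leydig, 662 to 681 in PTM and 263 to 284 in Sertoli libraries, and their part in the differences of the members was not tested.

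Usp18 and Oasl1 went the other way. Usp18 was at 80.2, 206 and 101 FPKM in PTM, 117, 119 and 103 in Sertoli and 62.0, 59.2 and 20.8 in Leydig libraries, and PTM less Leydig was 1.46 on the log2 scale (SE 0.33, adjusted p = 0.00145). Without Leydig replicate 3 this was 0.96, and with only the libraries of the pair the adjusted p was 0.101. Oasl1 was at 11.6, 32.4 and 15.3 FPKM in PTM, 18.5, 19.4 and 15.6 in Sertoli and 12.2, 11.4 and 2.81 in Leydig libraries. Its PTM less Leydig call was lost in 4 of 27 alternatives, with a limma adjusted p of up to 0.21. Leaving out Leydig replicate 3 (0.57) or PTM replicate 2 (0.74) were among these. In Leydig less Sertoli, the Oasl1 call was lost in 3 of 27 alternatives and the Usp18 call in 2 of 27. Rsad2, at 8.97, 62.8 and 21.2 FPKM in PTM and 5.10, 14.6 and 2.05 in Leydig libraries, overlapped between the groups (log2 fold change 1.87, SE 0.52, adjusted p = 0.00595, and 0.165 with only the libraries of the pair).

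Replicates of PTM and Leydig cells differed in these genes far more than in others. PTM replicate 2 was the highest PTM library for 34 of 34 members (41.8% of all tested genes), and PTM replicate 1 the lowest for 32. Leydig replicate 3 was the lowest Leydig library for 33 of 34 (33.3% of all tested genes), the exception being Gbp2 at 24.2, 25.1 and 27.4 FPKM. The median log2 range across the 3 libraries was 1.23 for members and 0.21 for all tested genes in PTM, 1.26 and 0.34 in Leydig, and 0.40 and 0.26 in Sertoli cells. In VSMC, ISMC and TSMC it was 0.16, 0.13 and 0.12 for members beside 0.10, 0.10 and 0.11.

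The level in PTM replicate 2 was a median of 2.53 times that in replicate 1, from 1.10 times for Lgals3bp to 7 times for Rsad2. The same library had the highest Sertoli marker sum of the PTM libraries (1173 FPKM, against 367 and 525), the highest macrophage marker sum (174 FPKM, against 115 and 124) and the lowest Leydig marker sum (2688, against 5419 and 5472). In Leydig cells the mean of replicates 1 and 2 was a median of 2.25 times replicate 3. Leydig replicate 3 had the highest Leydig marker sum of the 3 (8179 FPKM, against 3078 and 2118) and the highest macrophage marker sum (303 FPKM, against 101 and 19.2). The part of these differences in the spread of the members was not tested.

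Germ cells had the lowest group mean for 21 of 34 members, as they did for 48.8% of all tested genes. Of the 34, 32 were called higher in PTM than in germ libraries and 0 lower, where 42.9% of all tested genes were called higher and 27.6% lower, and the median log2 fold change was 4.95 beside 0.62 for all tested genes. Relative to the mean of the 6 other groups, 31 members were lower in germ cells (40.5% of all tested genes) and 1 higher (29%). Stated by level, 27 members were under 1 FPKM in all 3 germ libraries, and Isg15, Bst2, Cmpk2 and Dhx58 reached 1 FPKM in all 3.

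Dhx58 (Entrez 80861, chromosome 11, 100694884 to 100704271, minus strand) stood apart from the rest. It was at 40.3, 26.7 and 39.3 FPKM in germ libraries, beside 15.9, 29.3 and 18.2 in PTM, 21.1, 28.2 and 21.4 in Sertoli and 26.7, 32.4 and 13.95 in Leydig libraries. Germ libraries overlapped the testicular somatic libraries and lay above all smooth muscle libraries (0.29 to 0.77). The log2 fold change was 2.60 against the mean of the 6 other groups (SE 0.19, adjusted p = 2.16e-10) and -0.74 for PTM less germ cells (SE 0.25, adjusted p = 0.00869), which misses the fold minimum. Scaling by the median log-ratio moved the latter to -1.22 (adjusted p = 0.000117), and the same scaling moved the median of all tested genes from 0.62 to 0.28.

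Mx1 and Cmpk2 were the other members not called lower in germ cells than in the 6 groups. Mx1 was at 0.95, 1.08 and 0.79 FPKM in germ libraries, within the range of the testicular somatic libraries. Cmpk2 was at 2.04, 1.21 and 1.46 FPKM, below all testicular somatic and above all smooth muscle libraries. Compared with smooth muscle libraries alone, germ libraries were lower without overlap for 21 members (49.2% of all tested genes), higher for 4 (Dhx58, Oasl1, Mx1 and Cmpk2, against 38.7% of all tested genes) and overlapping for 9.

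Genes upstream of the members were counted from lists of the pathway. Of 21 interferon ligand genes listed, only 10 had values, and the rest could not be assessed. None of the 10 passed the filter on low values, and their summed level was at most 1.31 FPKM in any library. Ifnb1, the beta interferon gene, was at 0.07, 0 and 0.07 FPKM in PTM and at most 0.15 elsewhere, and like Ifnar1, Jak1 and Tyk2 here it falls outside the rule for naming genes and was chosen after its values were seen.

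Receptor and kinase genes differed less than the members between testicular somatic cells and smooth muscle: of 10 tested, 3 were called higher and 0 lower. Ifnar1 was at 10.95 to 15.1 FPKM in testicular somatic libraries and 11.96 to 14.2 in smooth muscle libraries, Tyk2 at 5.42 to 6.91 and 5.76 to 6.79, and Jak1 at 25.5 to 83.3 and 37.1 to 50.6. Among the called genes were Ifnar2, at 60.2 to 233 FPKM against 26.2 to 31.8 (log2 fold change 1.60, SE 0.08, limma adjusted p = 1.03e-11), and Jak2, a kinase of the interferon gamma receptor, at 12.1 to 20.7 against 5.46 to 8.43 (1.01, SE 0.08, limma adjusted p = 2.47e-09). For neither gene did values overlap between the 9 testicular somatic and the 9 smooth muscle libraries.

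**Figure D4:**
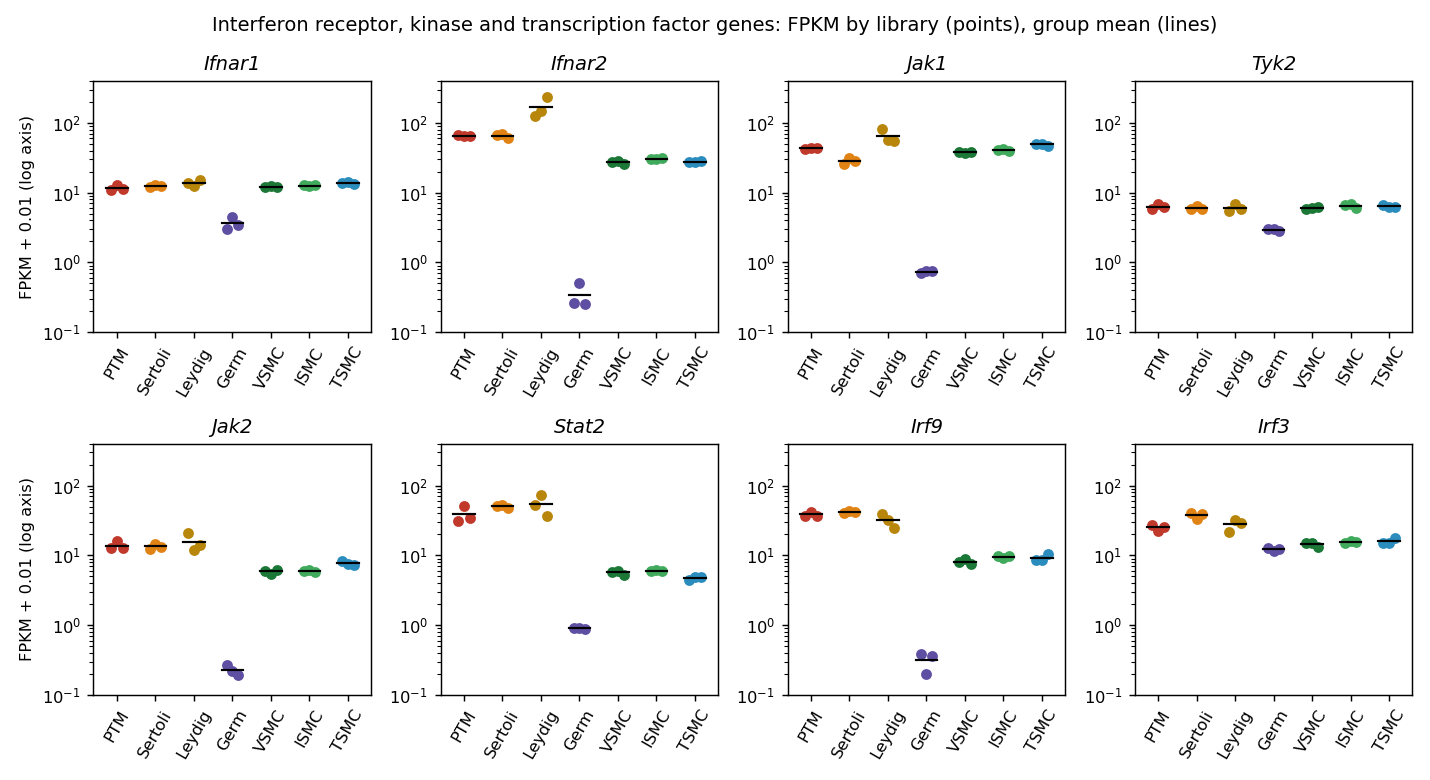
FPKM + 0.01 on a log axis for the receptor genes Ifnar1 and Ifnar2, the kinase genes Jak1, Tyk2 and Jak2 and the transcription factor genes Stat2, Irf9 and Irf3, with 1 point for each library and a line at the group mean, on the same scale in all panels. Ifnar1 and Tyk2 are level across the somatic groups, while Ifnar2, Jak2, Stat2 and Irf9 are higher in the 9 testicular somatic libraries than in the 9 smooth muscle libraries.

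Of 18 tested genes that sense nucleic acid or relay that signal, 7 were called higher and 0 lower in testicular somatic cells, among them Trim25, the ligase that activates RIG-I (a log2 difference of 1.71, adjusted p = 2.83e-12), and Myd88, an adaptor of Toll-like receptors (1.15, adjusted p = 6.63e-13). Of 15 genes that restrain the pathway, 3 were higher and 0 lower, including Trex1, a DNA exonuclease (2.24), and Adar, which edits double-stranded RNA (1.55). Of 73 other interferon-induced genes, 64 were higher and 0 lower, with a median log2 fold change of 2.25. Psmb8, a subunit of the immunoproteasome, was at 58.0 to 136 FPKM in testicular somatic and 0.17 to 3.08 in smooth muscle libraries (5.36, adjusted p = 2.19e-15). Ifi27l2a reached 7.11, Ccl5, a chemokine, 4.79, and Psmb9, another immunoproteasome subunit, 4.43 on the log2 scale. These counts stand beside the 9.87% and 6.82% of all tested genes given for this contrast, and these lists too were chosen with earlier results of these data known.

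In germ cells, 9 of the 10 tested receptor, kinase and STAT genes were lower than in the mean of the 6 other groups and 0 higher, where 40.5% of all tested genes were lower and 29% higher. Ifnar2 was at 0.25, 0.49 and 0.24 FPKM, with a log2 fold change of -5.29 (adjusted p = 1.34e-18). Jak1 was at 0.69, 0.73 and 0.75 FPKM (-4.66, adjusted p = 2.06e-19). Of the sensing genes 15 of 18 were lower and 0 higher, including Mavs, the mitochondrial adaptor of RIG-I and MDA5 (-3.64). Of the genes that restrain the pathway, 10 of 15 were lower and 3 higher, among the latter Rnf125, a ligase that marks RIG-I for degradation, at 28.1, 28.7 and 31.1 FPKM against at most 1.68 in any other library.

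Of 73 other interferon-induced genes, 16 were higher and 3 lower in Leydig than in Sertoli cells, where 6.56% of all tested genes were higher and 6.32% lower. The fibroblast markers that set these groups apart are given above. Ifitm1, a membrane protein that blocks virus entry, was at 82.5, 63.9 and 180 FPKM in Leydig and 1.12, 0.39 and 1.06 in Sertoli libraries (a log2 difference of 5.77, adjusted p = 3.77e-11). Socs3, an inhibitor of cytokine receptor signalling on the restraint list, was at 102, 89.2 and 117 FPKM in Leydig, 4.20, 11.4 and 5.79 in Sertoli and 21.5, 16.0 and 20.5 in PTM libraries. Ifnar2 was also highest there, at 127, 150 and 233 FPKM, against 60.2 to 69.5 in PTM and Sertoli libraries.

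Macrophages carry many of these genes at high level, so their markers are given beside the members. All 12 macrophage markers had values, and in the contrast of testicular somatic cells with smooth muscle 0 were called higher and 2 lower. For PTM cells, 3 were higher and 2 lower against VSMC, 0 higher and 6 lower against ISMC, 9 higher and 0 lower against TSMC, and 6 higher and 0 lower against Sertoli cells. In Leydig less Sertoli, 5 were higher and 0 lower. Summed over the list, the level was 115 to 174 FPKM for PTM, 8.28 to 42.4 for Sertoli, 19.2 to 303 for Leydig and 6.0 to 8.02 for germ libraries. Among the ISMC libraries, which had the highest sums of all, made up mostly by Lyz2 (mean 449 FPKM), Isg15 was at 8.5 to 9.53 FPKM. Sertoli libraries had sums of 8.28, 42.4 and 13.3 FPKM and Isg15 at 692, 890 and 677 FPKM. Sertoli replicate 2 thus had the highest macrophage sum and the highest Isg15 of its group, and it was the highest Sertoli library for 25 of 34 members (48.7% of all tested genes). Adgre1 was listed at 0, 0.55 and 0.10 FPKM in these libraries. The part of macrophages in the level of the members was not tested.

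The T and NK cell markers Cd3e and Nkg7 were at most 0.15 and 0.13 FPKM in every library, and Nkg7 was listed at 0 in all 9 testicular somatic libraries, while Cd3d was at most 0.19 FPKM outside germ libraries and 3.13 to 4.56 within them. Of the 10 markers of B and plasmacytoid dendritic cells, 3 were tested and 2 were higher in testicular somatic cells than in smooth muscle: Bst2, which is a member here, and Ly6d. Ly6d was at 32.7, 9.56 and 30.7 FPKM in PTM, 36.2, 4.87 and 47.9 in Leydig and at most 0.49 in all other libraries. The third, Tcf4, was at 11.4 to 33.0 FPKM in testicular somatic and 7.43 to 13.6 in smooth muscle libraries and was not called there. Siglech, for plasmacytoid dendritic cells, was at most 0.19 FPKM in every library. Ly6d and Tcf4 fall outside the rule for naming genes and were chosen after their values were seen, and the part of these cells was not tested.

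**Figure D5:**
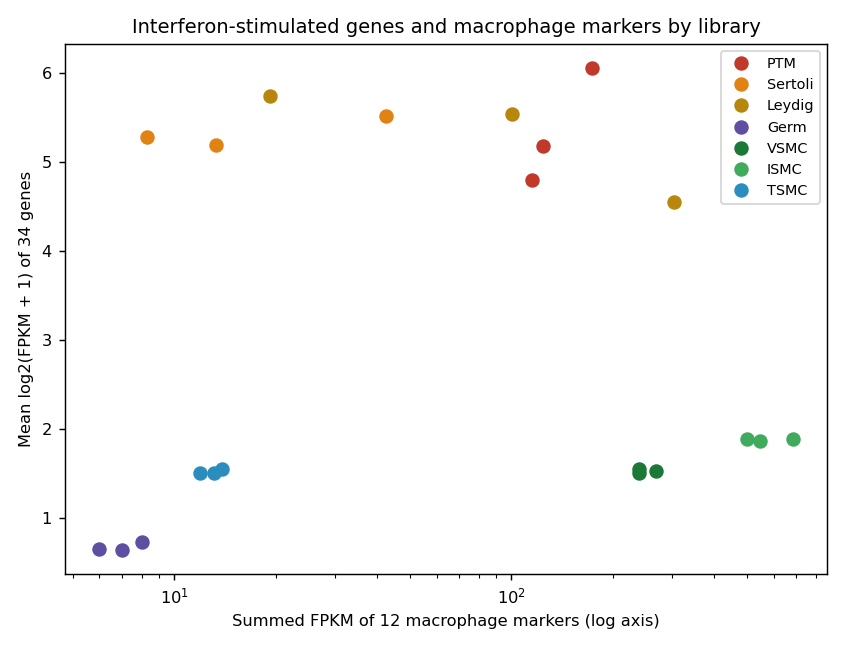
Mean log2(FPKM + 1) of the 34 interferon-stimulated genes against the summed FPKM of 12 macrophage markers on a log axis, with 1 point for each of the 21 libraries, coloured by group. Sertoli libraries are high on the vertical axis (5.19 to 5.52) at sums of 8.28 to 42.4 FPKM, and ISMC libraries are low (1.87 to 1.89) at sums of 500 to 684 FPKM. Lyz2 makes up most of the ISMC sums (mean 449 FPKM). PTM libraries (4.80 to 6.05) and Leydig libraries (4.55 to 5.74) are high at sums of 115 to 174 and 19.2 to 303 FPKM.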

How the data were processed

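The authors' deposited table gives FPKM per gene and library, to 2 decimals, with coordinates on mm10. The submitters' processing notes name RSEM 1.2.12, Bowtie2 2.2.5 and HISAT2 2.0.4, with no role for any. The table holds no counts. Depth came from the FPKM that 1 fragment is worth: among low values of genes with transcript lengths between 800 and 1500 bases, shortened by 150 bases, 84.4 to 91.7% were whole fragments within 0.2 (40% by chance).

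FPKM was taken as log2(FPKM + 1), which understates changes of low genes. The test covered the 14444 genes that reached 1 FPKM in 3 or more libraries, out of 19285 with values. All 21 libraries entered 1 limma fit with trend (limma 3.58.1, R 4.3.3) of 7 group means, with 14 residual degrees of freedom and 12 two-sided contrasts. Benjamini-Hochberg adjustment ran over all tested genes within a contrast. The fit was first checked on simulated log2 values with planted changes. These were planted only in genes of higher level, with the same spread in every group, so low genes and unequal spread were not covered. Motif matches and figures were made with Python 3.11.15, pandas 2.3.3 and matplotlib 3.10.9.

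The members, their roles and the pathway and marker lists were chosen with earlier results of these data known. Beside the members, the rule names up to 4 called genes per pathway list and contrast, by size of change, with libraries that do not overlap and a mean of 10 FPKM or more in the higher group, and the 3 markers given first in each marker list, some of which are not reported here. Alternatives were the pseudocount, the filter, the scaling, the libraries fitted, replicate number as a block and leaving out each library.

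The labels give no pairing. For PTM and Sertoli cells, libraries with the same number deviated together (r = 0.227, 0.25 and 0.103), the 1 of 21 pairs of groups with all 3 over 0.1.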

Additional observations from a re-analysis of the deposited data

How the results depend on the processing

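No call reversed in any alternative. Of 209 called pairs of member and contrast, the call was kept in 5579 repeats over the alternatives and lost in 33. Most of these repeats left out 1 library, often from a group outside the contrast, so this total is a weak check. With only the libraries of the compared groups in the fit, 7 of 177 calls were lost. The number of called members moved by over 1.5 times in these cases. With a pseudocount of 0.1, it was 2 for VSMC against ISMC, 2 for VSMC against TSMC and 6 for ISMC against TSMC. With only the libraries of the compared groups in the fit, it was 0 for PTM against Sertoli, 2 for PTM against Leydig and 3 for Leydig against Sertoli. With these libraries and no fold minimum, chosen after seeing the data, it was 16 for VSMC against ISMC, 15 for VSMC against TSMC and 24 for ISMC against TSMC. The cause was not tested.

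Leaving out each library in turn gave 32 to 33 called members for testicular somatic cells against smooth muscle and for PTM against VSMC, ISMC and TSMC, 32 to 32 for PTM against germ cells and 31 to 32 for germ cells against the 6 other groups. It gave 1 to 2 for PTM against Sertoli, 4 to 9 for PTM against Leydig, 4 to 7 for Leydig against Sertoli, 0 to 1 for ISMC against TSMC, and 0 for the other smooth muscle pairs. PTM and Sertoli cells gained Rsad2 (1.66) without PTM replicate 1 and Ifit3 (-1.26) without PTM replicate 2. Fits with replicate number as a block changed no call, 1 member remaining called between PTM and Sertoli cells.

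Scaling by the median log-ratio took the all-gene median on the log2 scale from 0.19 to 0.01 for PTM less VSMC and from 0.62 to 0.28 for PTM less germ cells. Values of a few hundredths of an FPKM, as for Mx1, Oasl1 and Ddx60 in smooth muscle, are limited by depth.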
